A study of Mus musculus with 8 samples.

Results

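The 2′-5′ oligoadenylate synthetase (OAS) family was followed in tumor epithelium with and without Yap1. Its 7 members were Oas1a, Oas1b, Oas1g, Oas2, Oas3, Oasl1 and Oasl2, taken by gene symbol from a table of 27179 entries. They were selected with their levels in these libraries already known, so their differences between the groups are given as a description without a test. Bulk RNA sequencing covered EpCAM+ cells sorted from antral gastric tumors of 4 Gp130FF; Yap1KO and 4 Gp130FF; Yap1WT mice, 1 library per mouse, and the question is which genes differ when Yap1 is removed from the tumor cells. All mice were homozygous for the Gp130 Y757F knock-in (Gp130FF), which overactivates Stat3 and gives spontaneous gastric adenomas, and were labelled as 18 weeks old and 3 days after tamoxifen. Per the study's methods, both groups carried floxed Yap1 alleles (Yap1 fl/fl) and the Tff1:CreERT2 transgene, whose Tff1 elements drive Cre in foveolar surface cells of the stomach, and Cre removes exon 3 of Yap1. The study describes its Yap1WT mice as vehicle-treated whereas the labels give tamoxifen for all 8, so the effect of the drug and of the deletion cannot be told apart if the vehicle description holds.

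OAS enzymes are cytosolic sensors of double-stranded RNA. Once bound to it, the active members join ATP into short chains with 2′-5′ bonds, called 2-5A, a messenger of the antiviral response. Most family genes are induced by interferons through the factor ISGF3, which holds Stat2 and Irf9 and binds the interferon-stimulated response element (ISRE) in their promoters. Mice have expanded the Oas1 branch into a row of paralogs, whereas Oas2 and Oas3 are single genes built from repeated OAS units.

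Libraries held 18229945 to 74278015 counts in Yap1KO and 27607755 to 77483047 counts in Yap1WT mice. Levels are given as CPM, a library's counts scaled to a common total, after TMM scaling, and a gene was tested when it passed 0.5 CPM in at least 6 libraries, which left 13495 genes. Yap1 itself fell in Yap1KO mice, with 21.3, 27.6, 29.7 and 24.2 CPM in the 4 Yap1KO libraries against 77.1, 64.2, 78.0 and 72.5 CPM in the 4 Yap1WT libraries (log2 fold change −1.51 ± 0.13 SE, edgeR adjusted p = 0.000208). The mouse numbers in the labels formed 2 series, one lower and one higher, with 2 mice of each genotype in each. Of 7 epithelial markers, Krt8 had the most reads, with 3178 ± 385 CPM in Yap1KO and 3660 ± 429 CPM in Yap1WT mice. Epcam, the sorting marker, was the only one called higher in Yap1KO by edgeR (adjusted p = 0.00188), and 0 were called lower. DESeq2 called 2 of the 7 higher and 1 lower, and limma-voom 2 higher and 0 lower. Of 7 endothelial markers, 2 were called higher in Yap1KO by edgeR, 3 by DESeq2, 6 by limma-voom and 6 at an unadjusted p under 0.05, their median log2 fold change was 1.39, and their summed level spanned 495 to 993 CPM in Yap1KO and 141 to 529 CPM in Yap1WT mice. Of 7 markers of foveolar cells, where Cre is driven, 3 were called lower in Yap1KO by edgeR, 5 by DESeq2 and 3 by limma-voom. At an unadjusted p under 0.05 in the edgeR fit 6 were lower. The median log2 fold change of these markers was −0.95, and they summed to 21804 to 37792 CPM in Yap1KO and 31255 to 63419 CPM in Yap1WT mice. Fibroblast markers summed to 313 to 1051 CPM in Yap1KO and 83.8 to 693 CPM in Yap1WT mice with a median log2 fold change of 1.05, 6 of 7 above 0, and 0 of 7 called by edgeR, by DESeq2, by limma-voom or at an unadjusted p under 0.05. The 8 T and NK cell markers summed to at most 0.695 CPM in Yap1KO and 0.699 CPM in Yap1WT libraries, with Ncr1 at 0 in all 8. The 10 macrophage and dendritic markers summed to 7.58 to 15.9 CPM in Yap1KO and 4.17 to 9.92 CPM in Yap1WT mice, and only 2 of them were tested. Cd68 was called higher, at 6.17 ± 1.47 CPM in Yap1KO and 2.97 ± 0.46 CPM in Yap1WT mice (edgeR adjusted p = 0.0468). Lyz2 went the other way, at 1.55 ± 1.87 CPM in Yap1KO and 2.20 ± 1.75 CPM in Yap1WT mice, and was not called (edgeR adjusted p = 0.827). Ptprc, carried by all leukocytes, lay at 1.19 to 4.47 CPM in Yap1KO and 5.62 to 12.4 CPM in Yap1WT mice. In bulk samples a larger share of a cell type and more RNA per cell cannot be told apart.

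Oas1a and Oas1g encode enzymatically active Oas1 synthetases and lay in neighbouring positions in the family's cluster. Oas1a had 82.8, 51.5, 111 and 98.5 CPM in the Yap1KO libraries, against 19.9, 22.4, 16.7 and 18.1 CPM in the Yap1WT libraries. Every Yap1KO mouse was above every Yap1WT mouse, and the Yap1KO mice were spread far more widely than the tight Yap1WT group. The log2 fold change of Oas1a was 2.16 ± 0.22 (SE), a mean of 86.0 ± 25.7 CPM in Yap1KO against 19.3 ± 2.44 CPM in Yap1WT mice (SD, n = 4 each). Oas1g followed the same pattern with 51.5, 33.7, 72.6 and 51.1 CPM in Yap1KO, against 10.7, 10.99, 10.1 and 9.85 CPM in Yap1WT libraries. Its groups did not overlap either, and the log2 fold change was 2.33 ± 0.21. The 2 transcripts are close copies. Of all 80-base windows of the GENCODE transcripts, 46.1% of those of Oas1a and 35.6% of those of Oas1g occur in the other gene, and 0% of the windows of the other 5 members occur in another gene. Reads from the shared stretches cannot be assigned to either gene with certainty, so the level of each is uncertain.

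Oas1b is the flavivirus resistance gene of mice. In C57BL/6 and most laboratory strains it carries a premature stop codon, and the RefSeq annotation of GRCm38.p6 lists it as a transcribed pseudogene. It had the fewest reads of the members in Yap1KO mice, with 4.49, 5.08, 7.50 and 2.35 CPM in Yap1KO, against 1.29, 1.30, 1.03 and 0 CPM in Yap1WT libraries. The fourth Yap1WT library had 0 reads, which allows up to 0.107 CPM at its depth (3 reads, counting error only). That is below the 1.03 to 1.30 CPM of the other Yap1WT libraries, and why it had no reads was not tested. Its groups did not overlap, but the log2 fold change of 2.40 had the largest standard error of the family, 0.78. A library of 43 reads in Yap1KO and the library without reads in Yap1WT are the lowest value of each group, and each is the shallowest library of its group.

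Oas2 and Oas3, whose proteins hold several OAS units, had few reads in Yap1WT mice and the largest fold differences of the family. Oas2 had 57.5, 34.1, 80.8 and 43.5 CPM in Yap1KO, against 1.08, 3.28, 1.10 and 0.895 CPM in Yap1WT libraries. The lowest Yap1KO mouse was still far above the highest Yap1WT mouse, and the second Yap1WT mouse stood apart from its group. The log2 fold change of Oas2 was 5.09 ± 0.46, or 33.9-fold between the means, and 5.70 without the second Yap1WT library. Oas3 is the longest synthetase and in human cells a main source of 2-5A. It had 52.7, 21.2, 48.6 and 24.9 CPM in Yap1KO, against 0.554, 0.396, 0.478 and 1.11 CPM in Yap1WT libraries, the widest difference of the members. These are 2849, 671, 3767 and 456 reads in Yap1KO against 43, 17, 33 and 31 reads in Yap1WT libraries. The log2 fold change was 5.93 ± 0.44, or 58.1-fold between the means, and Oas3 passed 0.5 CPM in 4 Yap1KO but only 2 Yap1WT libraries. Oas3, and Oas1b with 3 Yap1WT libraries over that level, therefore owed their place among the genes tested to the Yap1KO libraries.

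The Oasl genes encode OAS-like proteins that carry ubiquitin-like repeats behind the OAS unit. Mouse Oasl1 has no synthetase activity and is known to hold back translation of Irf7, while mouse Oasl2 makes 2-5A. Oasl1 was abundant in both groups, with 190, 141, 165 and 203 CPM in Yap1KO, against 89.6, 83.4, 73.7 and 92.2 CPM in Yap1WT libraries. Although its groups did not overlap, this was the smallest difference of the family, with a log2 fold change of 1.04 ± 0.13. Oasl2 lies beside it in the genome but differed far more, with 160, 73.0, 202 and 156 CPM in Yap1KO, against 13.5, 8.59, 7.05 and 10.99 CPM in Yap1WT libraries. The log2 fold change of Oasl2 was 3.88 ± 0.32.

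**Figure D1:**
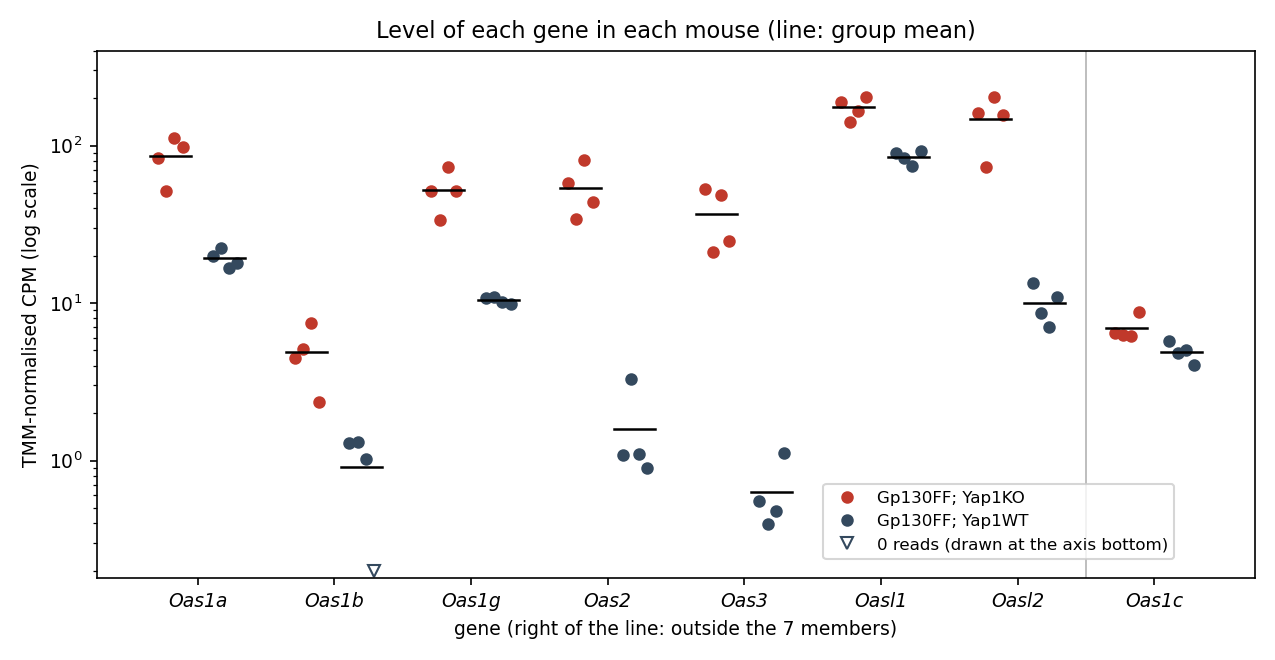
TMM-normalised CPM (log axis) of the 7 members and Oas1c in each mouse, Yap1KO left of Yap1WT, with a line at each group mean; the open triangle is the Yap1WT library with 0 reads of Oas1b. All 4 Yap1KO mice lie above all 4 Yap1WT mice for the 7 members and for Oas1c, whose means were 6.93 CPM in Yap1KO and 4.91 CPM in Yap1WT mice.

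All 7 members passed the filter on low counts. Their median log2 fold change was 2.40, beside −0.01 over all 13495 genes tested. In the edgeR fit 6 of the 7 were called higher in Yap1KO, Oas1b being the exception, and 7 of 7 by both DESeq2 and limma-voom. Over all genes edgeR called 3.53% higher and 2.34% lower in Yap1KO, DESeq2 6.26% higher and 4.22% lower, and limma-voom 4.23% higher and 2.85% lower. All 4 Yap1KO libraries lay above all 4 Yap1WT libraries for 7 of 7 members and for 7.19% of genes tested. Nothing is read from these counts, since the members were chosen on this contrast.

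The family sits in 2 places on mouse chromosome 5. Coordinates are those of GRCm38.p6, the build of the alignment. Oasl2 and Oasl1 lie next to each other at chr5:114896926-114937911, and the other 10 OAS genes in the table lie in a cluster of 191316 bases at chr5:120730333-120921648. By position the cluster runs Oas2, Oas3, Oas1e, Oas1c, Oas1b, Oas1f, Oas1h, Oas1g, Oas1a and Oas1d, so genes that differed widely between the groups are interspersed with genes that were almost unread. Oas1d, Oas1e, Oas1f and Oas1h did not pass the filter, with at most 15 reads in any library. Within 100000 bases of both clusters, 10 further protein-coding genes are annotated, of which 6 were tested and 0 were called by edgeR. Over all genes tested 3.53% were called higher and 2.34% lower, so 0 calls among so few genes says little. Of those tested, 5 lie beside the Oasl pair and only 1 beside the larger cluster. That gene, Rasal1, had 4.67 CPM in Yap1KO and 2.44 CPM in Yap1WT mice (log2 fold change 0.93 ± 0.46, edgeR adjusted p = 0.303). The neighbour nearest to Oasl1 among those tested, 2210016L21Rik, had a log2 fold change of −0.07 ± 0.12 (adjusted p = 0.795). These neighbours were looked up after the members' values had been seen.

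The RefSeq promoter table of GRCm38.p6, with 250 bases before and 50 bases after each start site, held 5 of the 7 members, leaving out Oas1b and Oas2. It was searched on both strands for the ISRE core GAAANNGAAA, for the gamma-activated site TTCNNNGAA, an element of interferon gamma responses, and for the TEAD motif GGAATG, through which Yap1 reaches DNA. An ISRE core occurred in Oas1a, Oas1g and Oas3, but not in these windows of Oasl1 or Oasl2, and in 3.44% of all 32851 promoters. The gamma-activated site occurred in Oas1a alone of the 5, against 8.30% of all promoters, and the TEAD motif in 0 of the 5, against 14.7% of all promoters. The 120 bases before the start site are shown for the 3 members with an ISRE core and for Oas1c, a paralog with the core and a small difference between the groups. All 4 are on the minus strand, the sequences read 5′ to 3′ towards the gene, and capitals mark the ISRE cores.
Oas1a, chr5:120907526-120907645: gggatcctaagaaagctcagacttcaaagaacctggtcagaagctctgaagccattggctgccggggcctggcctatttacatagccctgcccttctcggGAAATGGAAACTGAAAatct
Oas1g, chr5:120887614-120887733: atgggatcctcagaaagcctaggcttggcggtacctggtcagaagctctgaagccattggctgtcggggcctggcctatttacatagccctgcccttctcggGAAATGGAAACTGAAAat
Oas3, chr5:120777660-120777779: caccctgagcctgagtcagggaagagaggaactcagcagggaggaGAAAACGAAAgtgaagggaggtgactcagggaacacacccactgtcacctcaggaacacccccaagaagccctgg
Oas1c, chr5:120812515-120812634: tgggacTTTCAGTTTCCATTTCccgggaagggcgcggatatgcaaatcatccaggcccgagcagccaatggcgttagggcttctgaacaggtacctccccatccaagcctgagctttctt

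In Oas1a the capitals hold 2 overlapping cores, at bases −20 to −11 and −14 to −5 from the start site, and in Oas1g the same 16 bases lie 2 bases nearer to it. The promoter windows of Oas1a and Oas1g were 82.8% identical over 256 aligned columns, whereas the other pairs among the 5 members lay between 45.7% and 49.8%. Oas3 has a single core at bases −75 to −66. In Oas1c the capitals are the reverse complement of 2 overlapping cores at bases −114 to −99. The outer end of that window lies 1 base before the annotated start of Oas1b on the other strand, at position 120812635 of chromosome 5, so the same 2 cores lie 22 to 7 bases before Oas1b. A match describes the letters of the window and was not tested as a binding site.

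Levels can be compared between genes only per gene length, for which the log2 RPKM values deposited by the authors were used. In Yap1KO mice the order was Oasl1 with 6.38 ± 0.21, Oasl2 with 5.51 ± 0.63, Oas1a with 5.48 ± 0.48, Oas1g with 4.68 ± 0.45, Oas2 with 3.75 ± 0.54, Oas3 with 2.87 ± 0.67 and Oas1b with 1.23 ± 0.64 log2 RPKM (SD, n = 4). Each gene lay above the next in all 4 mice, except Oasl2, which was above Oas1a in 2 of 4. In Yap1WT mice the order was Oasl1 with 5.33 ± 0.16, Oas1a with 3.38 ± 0.14, Oas1g with 2.44 ± 0.03, Oasl2 with 1.69 ± 0.36, Oas1b with −1.33 ± 1.71, Oas2 with −1.33 ± 0.76 and Oas3 with −3.31 ± 1.22 log2 RPKM. Neighbours in this order were apart in all 4 mice down to Oas1b, which was above Oas2 in 2 of 4, and Oas2 was above Oas3 in 3 of 4. Oasl1 was therefore first in both groups, and the members spanned 5.15 log2 units in Yap1KO against 8.63 log2 units in Yap1WT mice. The lowest values of the deposited scale rest on few reads and on the authors' quantile normalization, and with RPKM computed from the counts over GENCODE exons the spans were 4.82 in Yap1KO and 7.45 in Yap1WT mice. On that scale Oas1a, at 5.46, was above Oasl2, at 4.45, in 4 of 4 Yap1KO mice, so the order of these 2 genes differed between the scales.

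**Figure D2:**
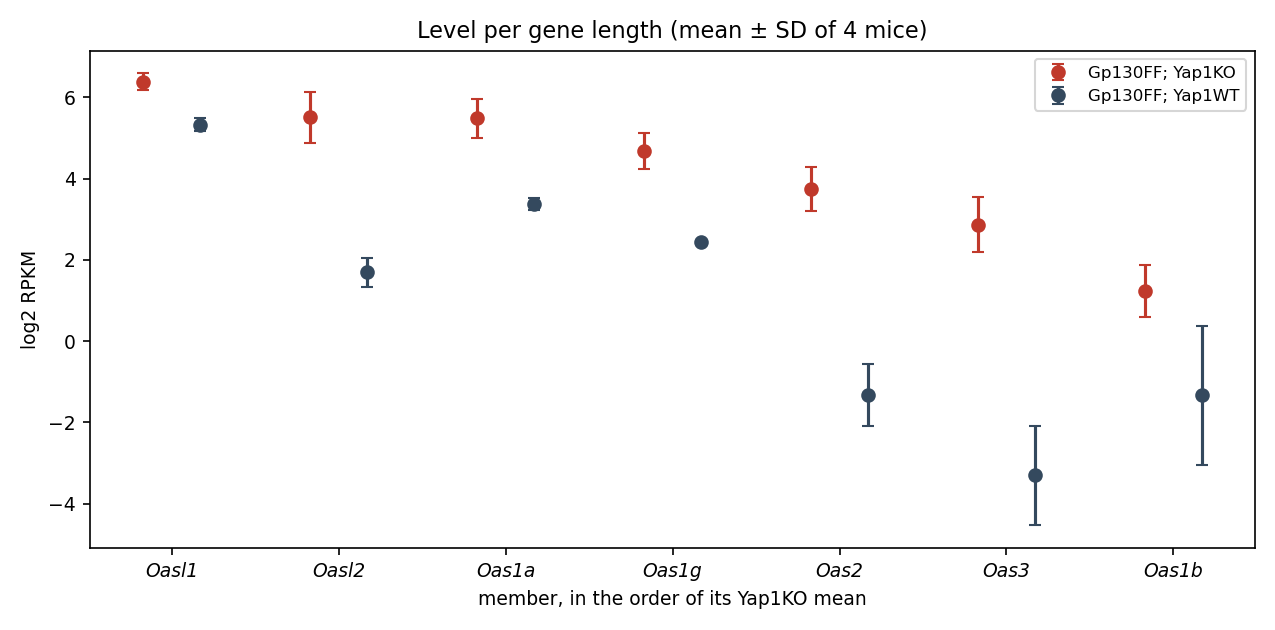
Deposited log2 RPKM of the 7 members, mean ± SD of 4 mice, Yap1KO left of Yap1WT, ordered by the Yap1KO mean. Oasl1 is highest in both groups, at 6.38 in Yap1KO and 5.33 in Yap1WT mice, and the members lie closer together in Yap1KO mice.

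Summed over the 12 OAS genes on the RPKM scale computed from counts, the transcripts reached 189, 123, 217 and 195 RPKM in Yap1KO, against 55.1, 53.4, 45.6 and 52.9 RPKM in Yap1WT libraries. That sum was 3.50-fold higher in Yap1KO mice. The share of Oasl1 in the sum averaged 37.9% in Yap1KO and 62.8% in Yap1WT mice. Oasl1, whose protein has no synthetase activity, therefore made up most of the family's RNA only in Yap1WT mice. The other genes of the sum are not all active synthetases, since Oas1b is among them. Oas1a took 24.9% in Yap1KO and 19.8% in Yap1WT mice, Oasl2 12.5% in Yap1KO and 3.01% in Yap1WT mice, Oas2 6.61% in Yap1KO and 0.686% in Yap1WT mice, and Oas3 2.84% in Yap1KO and 0.173% in Yap1WT mice.

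Of the 11 pathway genes outside the members, 7 were tested, 0 were called higher by edgeR, by DESeq2, by limma-voom or at an unadjusted p under 0.05, and 1 was called lower. Over all genes edgeR called 3.53% higher and 2.34% lower, so 0 calls higher among 7 genes says little. The list was chosen with earlier results of these data known. The median log2 fold change of these genes was −0.19, beside −0.01 over all genes tested.

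The gene that fell was Akap7, known as a kinase anchoring protein that also holds a 2′-5′ phosphodiesterase domain able to degrade 2-5A. It had 11.3, 14.7, 13.5 and 10.4 CPM in Yap1KO, against 23.3, 25.6, 31.8 and 24.8 CPM in Yap1WT libraries. The groups did not overlap, and the log2 fold change was −1.08 ± 0.16 (edgeR adjusted p = 0.00367). Without the 3 libraries of female mice, told by Xist reads, it was −1.12 with an adjusted p of 0.0539. Of these mice 1 was Yap1KO and 2 were Yap1WT, so that fit held fewer mice in each group. With a sex term over all libraries Akap7 stayed called lower. Pde12, the mitochondrial enzyme that breaks down 2-5A, had 62.2 ± 7.42 CPM in Yap1KO and 75.5 ± 13.2 CPM in Yap1WT mice and did not pass the test (adjusted p = 0.302). Abce1, a ribosome recycling factor, had 139 ± 25.0 CPM in Yap1KO and 158 ± 14.7 CPM in Yap1WT mice (adjusted p = 0.497). Abcf3 and Osbpl1a, reported as protein partners of Oas1b, had log2 fold changes of −0.02 ± 0.09 (adjusted p = 0.952) and −0.29 ± 0.19 (adjusted p = 0.458).

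Oas1c was the only further paralog with enough reads to test. It had 6.49, 6.31, 6.18 and 8.74 CPM in Yap1KO, against 5.78, 4.80, 5.02 and 4.05 CPM in Yap1WT libraries. All Yap1KO mice were above all Yap1WT mice, but the log2 fold change of 0.49 ± 0.22 did not pass the test (edgeR adjusted p = 0.250). Of the 80-base windows of its transcripts, 5.61% are shared with another gene. Among the unread paralogs, Oas1f had 14, 0, 6 and 0 reads in Yap1KO, against 2, 2, 1 and 0 reads in Yap1WT libraries. Oas1d, known from oocytes, had 9, 0, 15 and 0 reads in Yap1KO, against 2, 0, 0 and 0 reads in Yap1WT libraries. Oas1h had at most 6 reads in a Yap1KO and 9 in a Yap1WT library, and Oas1e at most 2 in a Yap1KO and 3 in a Yap1WT library.

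**Figure D3:**
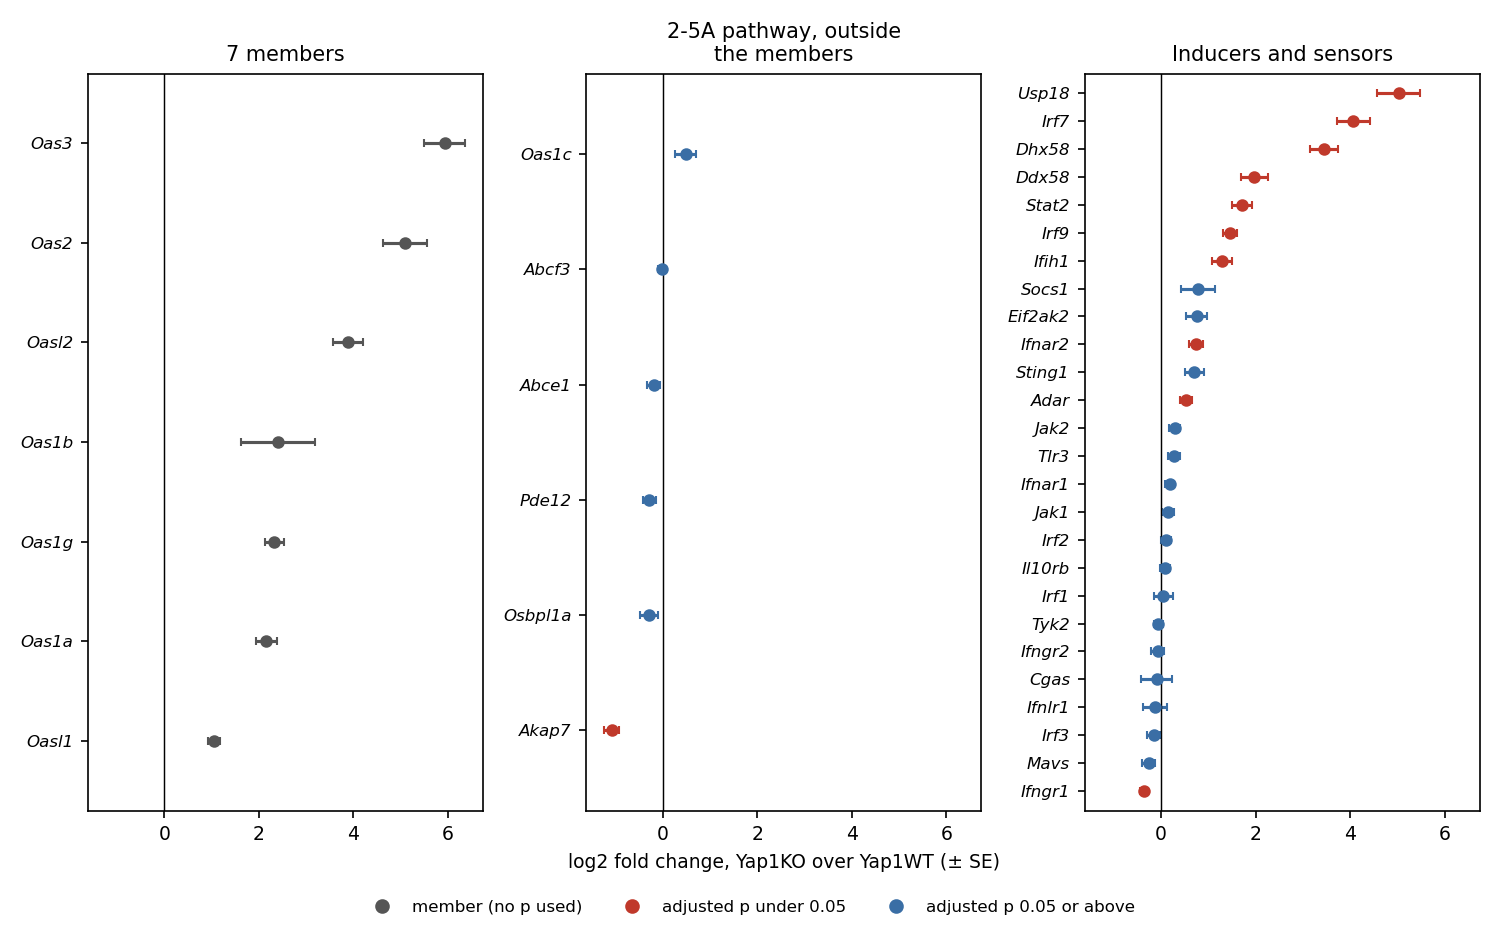
Log2 fold changes of Yap1KO over Yap1WT (± SE) for the 7 members, the pathway genes outside them and the inducers and sensors that are reported here; red marks an edgeR adjusted p under 0.05 and grey the members, for which no p is used. The members run between 1.04 for Oasl1 and 5.93 for Oas3, Oas1c stands at 0.49 and Akap7 at −1.08.

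Genes that induce the OAS family or sense RNA and DNA beside it were taken as a list of 27, all of which were tested. This list too was chosen with earlier results of these data known, so its calls and p-values are given as a description. In Yap1KO mice 10 were called higher and 1 lower by edgeR, with 12 higher by DESeq2 and 11 by limma-voom, and the median log2 fold change was 0.29. Over all genes edgeR called 3.53% higher and 2.34% lower, DESeq2 6.26% higher and limma-voom 4.23% higher. Without the 3 libraries of female mice, a fit with fewer mice in each group, 4 were called higher and 0 lower. With a sex term over all libraries 10 were called higher and 1 lower. Irf7, the factor that amplifies type I interferon responses, had 253, 102, 229 and 182 CPM in Yap1KO, against 15.4, 14.3, 8.92 and 6.73 CPM in Yap1WT libraries (log2 fold change 4.07 ± 0.35, adjusted p = 0.000209). Dhx58, the RNA sensor LGP2, rose by 3.45 ± 0.29 on the log2 scale (adjusted p = 0.000208). Usp18, which removes ISG15 and restrains the interferon receptor, rose by 5.03 ± 0.46 (adjusted p = 0.000288). It had 1.92, 0.675, 1.17 and 0.465 CPM in the Yap1WT libraries. Usp18 passed 0.5 CPM in 4 Yap1KO but only 3 Yap1WT libraries, so like Oas1b it owed its place among the genes tested to the Yap1KO libraries. Irf9, the DNA-binding part of ISGF3, rose by 1.46 ± 0.16 (adjusted p = 0.000639). Stat2, named here after its value was seen, rose by 1.71 ± 0.22 (adjusted p = 0.00156), and without the female mice the value was 1.53 ± 0.29 with an adjusted p of 0.0615. Ifngr1, a chain of the interferon gamma receptor, was the gene called lower, at 101 ± 3.22 CPM in Yap1KO and 130 ± 5.04 CPM in Yap1WT mice (adjusted p = 0.0273), a call that was lost when any of 7 of the 8 libraries was left out, while the log2 fold change stayed between −0.38 and −0.34 beside −0.36 with all libraries.

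Eif2ak2 encodes PKR, the other double-stranded RNA sensor that acts beside the OAS enzymes. It had 91.0, 44.9, 99.5 and 92.0 CPM in Yap1KO, against 43.4, 43.3, 55.7 and 51.6 CPM in Yap1WT libraries. The second Yap1KO mouse lay within the Yap1WT range, and the log2 fold change of 0.76 ± 0.22 did not pass the edgeR test (adjusted p = 0.0799) but did in DESeq2 (adjusted p = 0.0123). Without the second Yap1KO library it was 0.96 and passed. Of 20 interferon genes in the table, 14 had 0 reads in all 8 libraries, where 3 reads would be 0.0384 to 0.163 CPM. Ifnb1 had 5 reads in the second Yap1KO library, and Ifnl2 and Ifnl3 had 13 and 18 reads in the third. Ifng had 6 reads in the first Yap1WT library, and these 4 genes had 0 reads in the others. Ifne, an interferon of epithelia, had 10, 9, 2 and 0 reads in Yap1KO, against 75, 35, 29 and 8 reads in Yap1WT libraries.

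Members differed among Yap1KO mice in a shared order. The second Yap1KO mouse was the lowest of its group for 6 of the 7 members, the exception being Oas1b, and the third was the highest for 5 of the 7, the exceptions being Oas3 and Oasl1. The SD of log2 CPM within Yap1KO was 0.24 for Oasl1 and 0.45 to 0.69 for the other members, beside a median of 0.26 over all genes tested. Averaged over the members, the Yap1KO mice deviated from their group mean by 0.17, −0.51, 0.48 and −0.13 log2 units. In Yap1WT mice no single library was lowest for most members. The lowest was the third for Oas1a, Oasl1 and Oasl2, the fourth for Oas1b, Oas1g and Oas2, and the second for Oas3. The highest Yap1WT library was the second for Oas1a, Oas1b, Oas1g and Oas2, the fourth for Oas3 and Oasl1, and the first for Oasl2. How often a mouse is lowest or highest over all genes was not counted. The second Yap1KO mouse was also the lowest of its group for Irf7 and Irf9, by 0.83 and 0.36 log2 units below the mean. Among the markers, Muc5ac, the mucin of foveolar cells, was lowest in the same mouse, with 120, 16.7, 464 and 380 CPM in Yap1KO, against 193, 246, 490 and 626 CPM in Yap1WT libraries. Cdh1 and Cldn18, of the epithelial list, were also lowest there, at 744 and 679 CPM, against group means of 953 ± 190 and 894 ± 153 CPM in Yap1KO mice. By contrast, Krt18 and Elf3 of the epithelial list were highest of their group in that mouse, at 1656 and 801 CPM. Sult1c2, of the foveolar list, was highest there too, at 221 CPM. The other markers of both lists were neither lowest nor highest in that mouse. The part of endothelial, fibroblast, epithelial, foveolar or macrophage content in the members' difference or in their order was not tested.

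**Figure D4:**
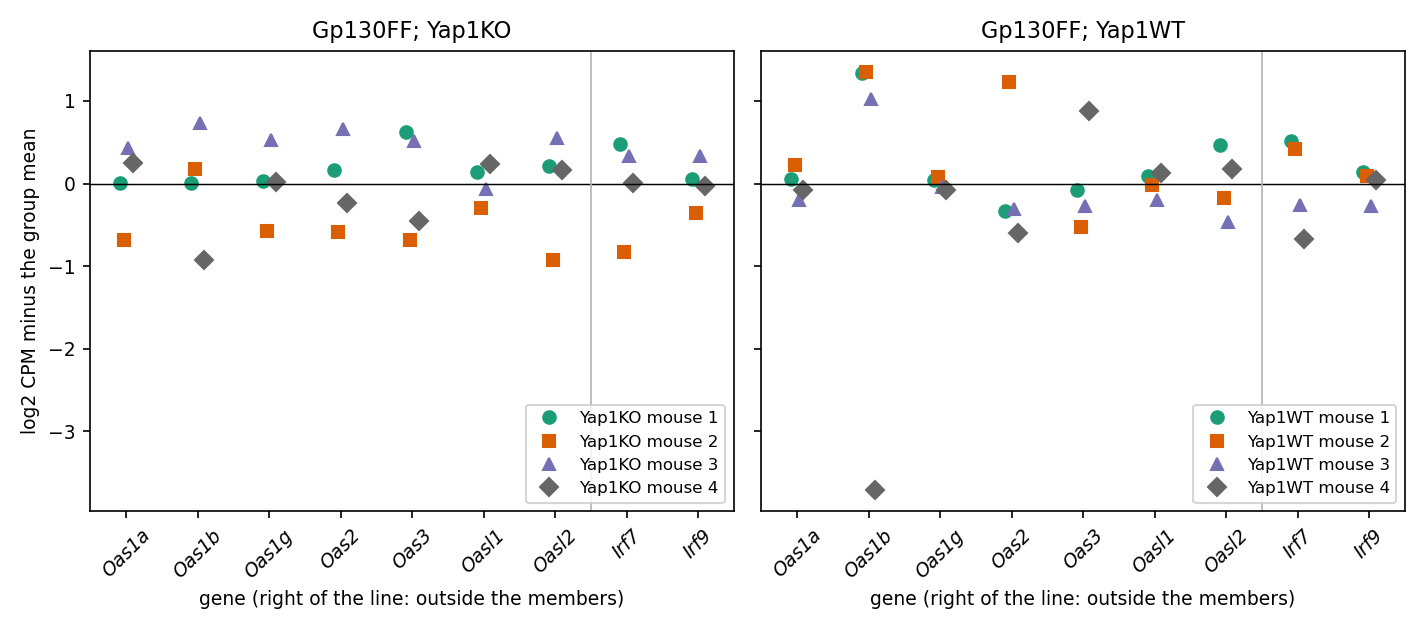
Log2 CPM of each mouse minus its group mean for the 7 members, Irf7 and Irf9, with Yap1KO mice on the left and Yap1WT mice on the right. Yap1KO mouse 2 lies lowest for 6 of the 7 members and for Irf7 and Irf9, and the point at −3.71 is the Yap1WT library with 0 reads of Oas1b.

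Over the 8 libraries, with the group means taken out, the 21 pairs of members had a median Pearson correlation of 0.43, between −0.53 for Oas1b with Oas3 and 0.92 for Oas1a with Oas1g, and 17 were above 0. The libraries share depth and mouse between genes, and Oas1a and Oas1g share sequence, so these are descriptions. Among 10843 genes with enough reads, the 5 whose deviations were most like the mean of the members were Zfp37 (Pearson r = 0.96), Rbm26 (r = 0.95), Trim21 (r = 0.95), Mx1 (r = 0.94) and Spag9 (r = 0.94). This ranking rested on the 0 of Oas1b in the fourth Yap1WT library. Without Oas1b the first 5 included Irf9 (r = 0.95), Srpr (r = 0.95), B2m (r = 0.95) and Ddx60 (r = 0.93), and they shared 0 genes with the first ranking.

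Every Yap1KO mouse lay above every Yap1WT mouse for each member, so a difference in both series of mouse numbers was fixed in advance. The values by series describe only its size. In the lower-numbered mice Oas1a was 3.18-fold, Oas2 20.97-fold and Oas3 77.7-fold higher in Yap1KO, and in the higher-numbered mice they were 6.02-fold, 62.3-fold and 46.3-fold higher (2 mice per group and series). Oasl1 was 1.91-fold higher in the lower-numbered and 2.22-fold higher in the higher-numbered mice, and Oasl2 10.6-fold and 19.9-fold. At equal genotype 0 of 7 members differed between the series by edgeR, where the smallest adjusted p was 0.659 for Oas1g and 0 had an unadjusted p under 0.05, and 0 by DESeq2 or limma-voom. Over all genes that term called 0.0519%, and 13% had an unadjusted p under 0.05 in the edgeR fit. With 7 members, 0 is near that share. The interaction of genotype and series was called for 0 of 7 members and for 0% of all genes by edgeR, and for 0 members by DESeq2 or limma-voom. Its largest member estimate against the error was for Oas1a, 0.92 ± 0.31 log2 units more in the higher-numbered mice, with an unadjusted p of 0.0163 in the edgeR fit and an adjusted p of 0.9997. The series hold 2 mice per group, so differences of this size were not resolved.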

How the data were processed

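Bulk RNA sequencing of EpCAM+ cells from antral gastric tumors was analysed in 4 Gp130FF; Yap1KO and 4 Gp130FF; Yap1WT mice, grouped by the labels. Libraries were prepared with TruSeq RNA v2, which does not mark strand, and no RefSeq gene overlaps a member. The authors made the deposited counts with the Subread aligner and featureCounts on GRCm38/mm10 with RefSeq genes, and how reads matching several places were treated is not given in the sources used here. The authors made the deposited log2 RPKM values with voom and quantile normalization (limma), and how gene length entered is not stated. Of the count columns 8 matched a sample by mouse number, and 6 others were not used. Of 27179 entries 1312 lacked a symbol, 35 of which were named from RefSeq by gene ID, and 1277 were left out, 0.552% to 0.789% of a library's counts. Pseudogenes were left out (762) except 73 that the log2 values hold, Oas1b among them.

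The quasi-likelihood test of edgeR 4.0.16 (R 4.3.3), with TMM scaling, was run on every gene that passed 0.5 CPM in 6 or more libraries, and p-values were adjusted after Benjamini and Hochberg (threshold 0.05). CPM are TMM-normalised, ± is the SD over 4 mice or, after a log2 fold change, its SE, and log2 CPM used a prior count of 2. DESeq2 1.42.0, limma-voom 3.58.1, RLE factors, no factors, library sizes without the 20 most abundant genes, other filters, series, sex and replicate terms and leaving out each library were alternatives. The planned RPKM from a length column could not be made, as the count table has none, and lengths of merged GENCODE M21 exons were used instead. Tests were run on simulated data first. Motifs and identities were computed in Python 3.11.15 (Biopython 1.88, matplotlib 3.10.9). Floors of 3 reads cover counting error only. Mice are separate animals, and cage or litter is not given.

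Members and lists were chosen with earlier results of these data known. Named were the members, Yap1, the pathway genes, up to 4 called inducers per direction with the smallest p, Irf7, Eif2ak2, abundant markers, and the 5 genes with the highest correlation with the members' mean deviation, at a mean of at least 5 CPM. Some genes of the lists are not reported here.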

Additional observations from a re-analysis of the deposited data

Results flagged for a closer look

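Of 84 groups of 4 mice examined, 3 held a library far from the other 3, where chance alone marks about 1 group in 20. Oas2 had 3.28 CPM in the second Yap1WT library, against 0.895 to 1.10 CPM in the other Yap1WT libraries. Oas1c had 8.74 CPM in the fourth Yap1KO library, against 6.18 to 6.49 CPM in the other Yap1KO libraries. Eif2ak2 had 44.9 CPM in the second Yap1KO library, against 91.0 to 99.5 CPM in the other Yap1KO libraries, and the same library was the lowest of its group for 6 of the 7 members.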

How the results depend on the processing

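The members' median log2 fold change of 2.40 lay between 2.32 and 2.75 under the other tools, scalings, filters and model terms and between 2.13 and 2.62 when one library was left out, and every member stayed above 0 and within 1 replicate SD of its value wherever it was fitted. Without the 3 libraries of female mice, chosen after seeing the data, the median was 2.30 and Oas3 did not pass the filter. Over all genes the count called higher moved from 476 to 845 with DESeq2, 755 with the replicate block and 114 without the female mice, and the count called lower moved from 316 to 569, 552 and 66. With a sex term over all libraries the counts were 614 higher and 325 lower. Leaving out the female mice removed 1 Yap1KO and 2 Yap1WT libraries, and loss of mice and sex cannot be told apart in that setting. Leaving out one library gave 238 to 483 higher and 154 to 283 lower, with counts of 285 and 206 without Yap1KO replicate 1, 260 and 193 without Yap1KO replicate 4, 312 and 226 without Yap1WT replicate 1, and 238 and 154 without Yap1WT replicate 3. The 1 pathway gene called lower, Akap7, stayed called in every setting but that without the female mice, where 0 were. Of the inducers, 4 were called higher and 0 lower without the female mice, 0 lower with no scaling factors, and 0 to 1 lower when one library was left out, and the cause was not tested. With group means taken out, same-numbered libraries of the groups correlated at 0.04, 0.35, 0.05 and 0.15, and differently numbered ones between −0.24 and 0.20. So few mice cannot decide whether the replicate numbers pair them, and the main fit treated them as unpaired. Under the replicate block Eif2ak2 passed (edgeR adjusted p = 0.0393). The series and interaction terms called 0 members in every setting run. The span of levels per gene length moved from 8.63 to 7.45 log2 units in Yap1WT mice with GENCODE lengths, and of the 5 genes most like the members 3 remained by Spearman and 0 without Oas1b. Oas1b, Oas3 in Yap1WT mice and the unread paralogs rest on few reads.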
